A study of Canis lupus familiaris with 26 samples.

Results

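Adenoma-associated stroma (AAS) is the connective tissue that lies between and around the epithelial cells of a mammary adenoma, a benign tumour of the gland. Of 26 samples in the series 13 are AAS, and the 12 described here are those left when sample 14 is set aside. AAS was cut by laser-capture microdissection from formalin-fixed, paraffin-embedded (FFPE) sections of canine simple mammary adenoma, and its RNA was sequenced. The tumours arose spontaneously in female dogs of several breeds, and no dog was given an experimental treatment. The sample labels call this tissue cancer-associated stroma. Each sample came from 1 dog and is named here by the number in its label, so that AAS3 is the AAS of the pair labelled 3. The dogs were 6 to 13 years old, and the paraffin blocks were 4 to 29 months old at analysis. With 1 sample per dog, the spread between samples holds differences between dogs, between the areas that were cut and between libraries, and these cannot be told apart. In such bulk samples, fewer cells of a type and less RNA per cell cannot be told apart either. No comparison with normal stroma is made.

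Stroma is built by fibroblasts, which secrete collagens, elastic microfibrils and proteoglycans. Vessels, immune cells and nerves run through it. In the mammary gland it surrounds ducts and lobules whose epithelium rests on a basement membrane of laminins, type IV collagen and nidogen. Plasma cells in the stroma make immunoglobulins, which epithelial cells carry into the secretion.

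The 12 AAS samples held between 419770 (AAS10) and 1614120 (AAS9) estimated counts, but a few genes took many of them. The 3 most counted genes of the tissue took from 15.4% of the counts in AAS8 to 89.1% in AAS7. ENSCAFG00000029384, for which no symbol was at hand, took 84.9% of AAS7, against 5.53% to 23.8% of the other 11 samples. Outside its most counted gene AAS7 held 93673 counts. AAS10 held 296739, AAS15 held 380883 and AAS8 held 471549, whereas the other 8 samples held from 603155 to 1401048. The number of genes with at least 10 counts ran from 1220 in AAS7 to 7744 in AAS9. AAS8 was a shallow library with many genes, since 13662 genes had at least 1 count in it, the highest number of the 12 samples. AAS15, which held a similar total, had 4857, the lowest. Results below are therefore given also without AAS7 or without AAS7, AAS8, AAS10 and AAS15 where that changes a call or moves a printed ratio by over 1.5 times. For relations between gene lists, changes of a call without AAS7 are given mostly as a count.

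**Figure D1:**
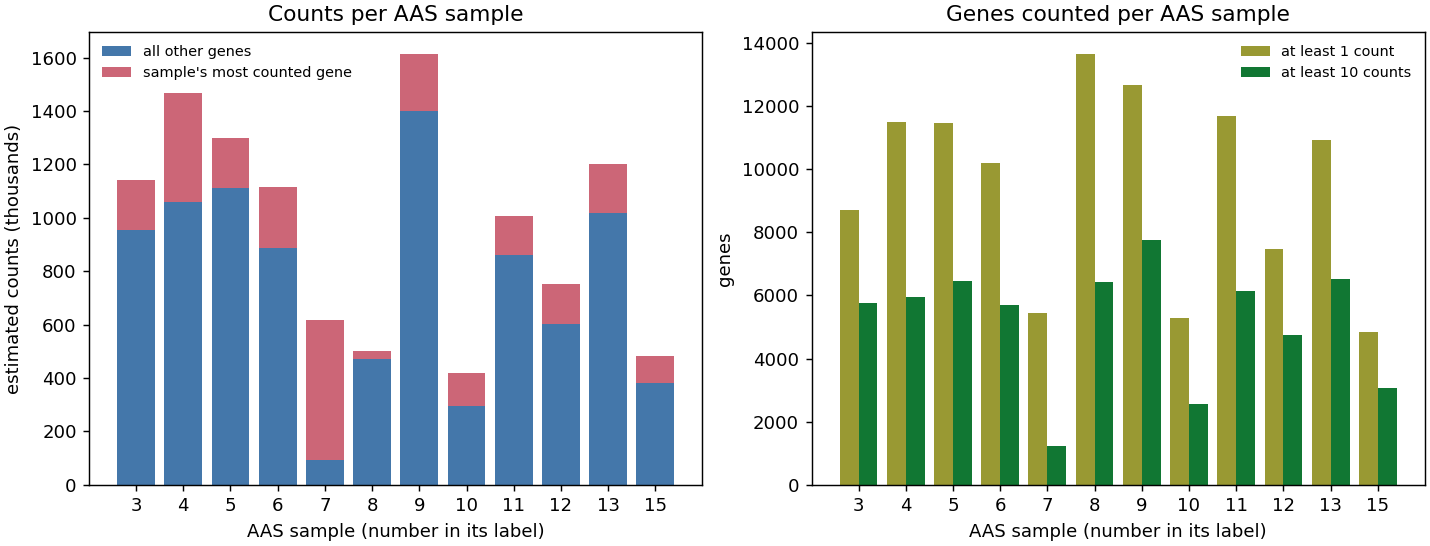
Left, estimated counts in each of the 12 AAS samples, split into the sample's most counted gene (red) and all other genes (blue); right, the number of genes with at least 1 count (olive) and at least 10 counts (green). AAS7 keeps 93673 counts outside its most counted gene, and AAS8 reaches 13662 genes with at least 1 count from a total of 499178.

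Levels are given as normalized CPM, which are counts divided by the library size after TMM scaling and put on a common scale. TMM is a factor per sample that keeps the few dominant genes from setting the scale. A count of 0 allows a level of up to 3 counts. This limit was 1.49 CPM in AAS9 and 5.49 CPM in AAS15. It was 10.0 CPM in AAS10 and 26.5 CPM in AAS7. Counting error alone is covered by these limits. Counts are not per length, so that the order of 2 genes in one sample is an order of counts.

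Some markers of stroma were counted in all 12 AAS samples, among them VIM, COL1A1, THY1, PDGFRA, SFRP1 and CDH11. Other measured fibroblast markers had 0 counts in some samples: C1QTNF4 in 4, SCUBE2 in 3, S100A4, PI16 and ITGA11 in 2 each and CD248 in 1. CLEC3B, SCARA5, GFPT2 and SFRP4 did not reach a mean of 10 counts. VIM, the intermediate filament of mesenchymal cells, had from 201 CPM (AAS10) to 1467 CPM (AAS9). COL1A1, a chain of type I collagen, had from 132 CPM (AAS7) to 3948 CPM (AAS13). THY1, a surface protein of fibroblasts, had from 35.3 CPM (4 counts, AAS7) to 147 CPM. The summed level of the 11 measured fibroblast markers ran from 476 to 2205 CPM, and that of the 13 measured mammary epithelial markers from 360 to 973 CPM. EPCAM, an epithelial adhesion molecule, was counted in every sample at 13.4 CPM (4 counts, AAS10) to 64.1 CPM. CDH1, the cadherin of epithelial junctions, had 22.0 to 226 CPM. Epithelial transcripts were thus present in every AAS library, and their part in the results below was not tested. Of 19 T and NK cell markers only 3 had an identifier, and none of these reached a mean of 10 counts. Of 19 endothelial markers 4 had an identifier, and KDR and TEK reached that mean. Markers without an identifier could not be looked up, so their levels are not known here.

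Among genes with a symbol, the most counted in AAS were not matrix genes. SLF1, a genome stability factor, took a mean of 1.37% of a sample's counts (SD 0.730, n = 12), with a range from 0.0752% in AAS7 to 2.53% in AAS9. BRSK1, a kinase of neurons, took 0.620% (SD 0.582). Its share was 1.98% in AAS3, 1.40% in AAS10, 1.10% in AAS15 and 0.819% in AAS12, and at most 0.341% in the other 8. AAS7 is among these, although its level there, scaled as described below, was 12873 CPM, the third highest. STRAP, a protein of the SMN complex, took 0.395% (SD 0.488), with 1.89% in AAS15 and at most 0.508% in the other 11. Its ratio of spread, defined below, was 1.72, and 0.86 without the 4 shallow samples. TMEM196 followed at 0.299% and RNF175 at 0.296%. COL1A1 was the most counted matrix gene at 0.180% (SD 0.171), from 0.00243% in AAS7 to 0.492% in AAS13. LTA4H, an enzyme of leukotriene synthesis, took 0.176%, and PPARGC1A, a coactivator of mitochondrial genes, took 0.171%. H2AFV, a histone variant, took 0.162%, and ZNF582, a zinc finger gene, took 0.127%. In a dog gene table of another assembly SLF1 overlaps KIAA0825 and BRSK1 overlaps TMEM150B, and no strand setting of the counting was at hand, so that the reads of such neighbours may not be separable.

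The spread of a gene between AAS samples was measured as its biological coefficient of variation (BCV), the SD beyond counting error as a share of the mean, from the negative binomial model of edgeR. A gene with few counts has a larger BCV than one with many, so each BCV was divided by the BCV that the trend over all genes gives at the same mean level. A ratio of 1 marks a gene as variable as others of its level. Of 18466 genes, 5466 had a mean of at least 10 counts, and 2111 of these had a symbol. The median BCV was 72.8% of the mean. The ratio had a median of 0.884, and 1991 genes (36.4%) lay above 1. It was at least 2 for 96 genes (1.76%), of which 31 had a symbol, and at most 0.5 for 365. Without AAS7 the number at 2 or more was 106, and 85 of the 100 genes with the largest ratio were the same. Without the 4 shallow samples it was 163, and 57 of the 100 were the same.

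**Figure D2:**
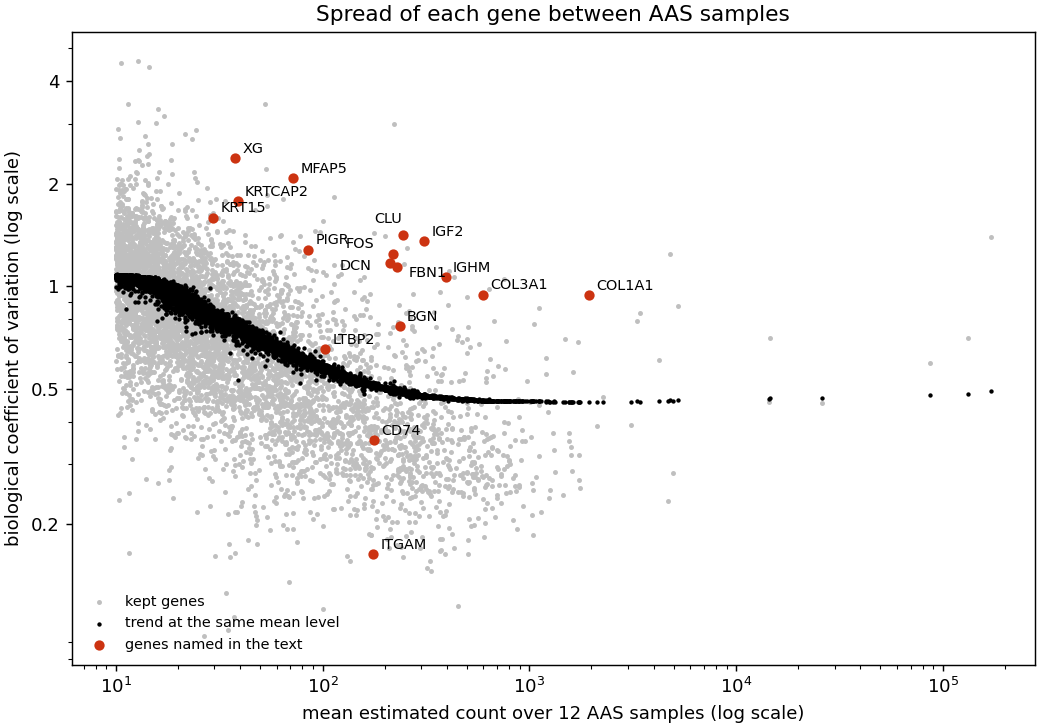
Biological coefficient of variation (log scale) against the mean estimated count (log scale) of 5466 genes (grey) over 12 AAS samples, with the trend (black) and genes named in the text (red). MFAP5, IGF2, CLU, IGHM and COL1A1 lie above the trend, and CD74 and ITGAM lie below it.

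High ratios often came from a single sample. Among the 100 genes with the largest ratio, 51 had over 50% of their summed CPM in 1 sample, whereas 135 of all 5466 genes did. The median share of the highest sample was 50.4% for the 100 genes and 20.5% for all. The 100 genes were chosen by their spread, which 1 high sample raises. Both contrasts with all genes thus follow in part from this choice, and they were not tested. Of the 100 genes, 26 were at 0 in at least 6 samples and 20 were at 0 in none. The highest sample was AAS8 for 14 of the 100, AAS7 for 12 and AAS15 for 11, and each of the 12 samples was the highest for at least 3.

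Over the 12 AAS samples the measured matrix genes lay above the trend more often than all genes did. Of the 52 measured members of the fibrillar collagen, basement membrane and other matrix lists, 41 (78.8%) lay above the trend, against 36.4% of all genes and 37.9% of those with a symbol. Their median ratio was 1.41, against 0.884 and 0.891. The 6 members at 2 or more were MFAP5, MFAP4, FBN1, DCN, COL1A1 and COL3A1. AAS9 held the highest level of 12 of the 52 (23.1%), where it was the highest sample for 6.75% of all genes. AAS6 was the highest for 9 (17.3%), against 5.69% of all genes. AAS10 held 0 counts for 25 of the 52 (48.1%), against 27.1% of all genes, and AAS15 for 12 (23.1%), against 32.4%.

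COL1A1 and COL3A1, which form the main fibrils of types I and III, were high in the same samples. COL1A1 had a median of 1131 CPM. It reached 3948 CPM in AAS13, 3848 CPM in AAS6 and 3626 CPM in AAS11, and the other 9 samples lay at or below 1422 CPM. COL3A1 ran from 54.9 CPM in AAS8 over a median of 315 CPM to 1622 CPM in AAS6, with 1230 CPM in AAS13. Their ratios were 2.06 and 2.04. COL1A2, the second chain of type I collagen, had its 3 highest levels in the same 3 samples (719, 595 and 464 CPM in AAS6, AAS13 and AAS11). COL5A2 and COL12A1 lay below the trend, at ratios of 0.91 and 0.84, and COL12A1, a collagen on the fibril surface, was highest in AAS11 at 199 CPM.

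Microfibril genes differed in which sample stood out. MFAP5, a glycoprotein of elastic microfibrils, had the largest ratio of all genes with a symbol, 3.72. Its level was 1049 CPM in AAS15, from 573 counts, and at most 91.1 CPM in the other 11, with a median of 13.5 CPM. AAS15 alone thus held 82.9% of its summed level. MFAP5 overlaps RIMKLB in the gene table. MFAP4, another microfibril-associated protein, was highest in AAS9 at 364 CPM and had 0 counts in AAS10 and AAS15, with a median of 29.1 CPM. FBN1, fibrillin itself, ran from 0 in AAS10 and 8.82 CPM (1 count) in AAS7 to 566 CPM in AAS6, with a median of 159 CPM. The ratios of MFAP4 and FBN1 were 2.31 and 2.27. MFAP5 had a ratio of 2.03 without the 4 shallow samples, AAS15 among them.

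DCN and BGN, small proteoglycans that bind collagen fibrils, differed in order over the samples. DCN had a median of 82.6 CPM. It was highest in AAS9 at 584 CPM and in AAS3 at 312 CPM, and had 0 counts in AAS10. BGN had 198 CPM ± 143 (SD, n = 12), from 26.5 CPM (3 counts) in AAS7 to 501 CPM in AAS6, with 177 CPM in AAS10. The ratio was 2.25 for DCN and 1.53 for BGN. LTBP2, a microfibril-associated relative of the TGF-beta binding proteins, had 90.6 CPM ± 58.0, from 17.6 CPM (AAS7, 2 counts) to 204 CPM (AAS3), and a ratio of 1.13. LTBP2 overlaps ISCA2 in the gene table.

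In the basement membrane, 5 of 8 measured genes lay above the trend (62.5%, against 36.4% of all genes). LAMA4, a laminin chain of vessels, ran from 0 in AAS15 over a median of 83.4 CPM to 197 CPM in AAS13. NID1, which links laminin to type IV collagen, ran from 0 in AAS10 and AAS15 over 36.5 CPM to 137 CPM in AAS3. EGFLAM lay below the trend with a ratio of 0.55, and its highest level was 49.0 CPM in AAS5. MMP14, a membrane-bound collagenase, had the smallest ratio of the other matrix genes, 0.76, with 7.98 to 70.2 CPM. Among fibroblast markers, S100A4 had the largest ratio, 2.25. It reached 378 CPM in AAS9 and at most 78.2 CPM elsewhere, with 0 counts in AAS5 and AAS10. CD248, an antigen of fibroblasts and pericytes, ran from 0 in AAS10 to 246 CPM in AAS6 with a ratio of 1.61, and THY1 lay at 0.62.

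IGF2, a fetal growth factor that signals through the IGF1 receptor, was the most variable member of its system. It had 1602 CPM in AAS6, 448 CPM in AAS5 and 253 CPM in AAS4, a median of 136 CPM, and 17.0, 8.82 and 4.70 CPM in AAS12, AAS7 and AAS3. The value of AAS7 is 1 count, and that of AAS3 is 6 counts in a library of 1140012. AAS6 therefore held 52.3% of the summed level. The mean was 255 CPM ± 443 (SD, n = 12) and the ratio 2.81. IGFBP7, a secreted binding protein of the family, was highest at 374 CPM in AAS3. It had 211 CPM in AAS9, a median of 38.3 CPM and 0 counts in AAS10, with a ratio of 2.0. It overlaps POLR2B in the gene table. IGFBP5 was highest in AAS11 (414 CPM) and IGFBP4 in AAS13 (214 CPM). IGF2R, the receptor that clears IGF2, lay at 31.0 CPM or below with a ratio of 0.73. Of the 5 measured members 4 lay above the trend, against 36.4% of all genes, and so short a list was not tested.

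Immune genes were mixed. IGHM, the constant part of the IgM heavy chain, had a ratio of 2.26 and a wide spread over many samples. It had 943 CPM in AAS4, 789 CPM in AAS11, 712 CPM in AAS6 and 678 CPM in AAS13, a median of 204 CPM, and 13.4 CPM (4 counts) in AAS10. AAS3, AAS8, AAS9 and AAS12 lay between 47.8 and 86.1 CPM. TNFRSF17, a receptor of plasma cells, had 399 CPM in AAS15 and 395 CPM in AAS10, followed by 327 CPM in AAS4 and 250 CPM in AAS6, and was lowest in AAS11 at 31.7 CPM. IGHM shares sequence with other immunoglobulin genes, so its counts are uncertain.

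Of the antigen presentation genes 5 of 11 (45.5%) lay above the trend, near the 36.4% of all genes, and their median ratio was 0.993. CD74, the chaperone of MHC class II molecules, was among the steady genes, with 161 CPM ± 59.2 (SD, n = 12), from 83.6 CPM in AAS5 over a median of 155 CPM to 269 CPM in AAS9. Its ratio was 0.69. DLA-DRA, a class II chain, ran from 17.6 CPM (AAS7, 2 counts) to 588 CPM (AAS11) with a ratio of 1.42. DLA88, a class I gene, had the largest ratio of the list, 1.67, at 58.3 CPM or below, and HLA-DRB1 the smallest, 0.52. DLA genes have near-identical relatives, and their counts are uncertain. In the myeloid list 3 of 7 (42.9%) lay above the trend, near the share of all genes. CD209, a lectin of macrophages and dendritic cells, had 88.0 CPM in AAS12 and 87.1 CPM in AAS9 but at most 32.9 CPM elsewhere. CSF1R, the receptor of the macrophage growth factor, was highest in AAS12 at 51.9 CPM with a ratio of 1.16. ITGAM, an integrin of myeloid cells, lay between 117 and 221 CPM with a ratio of 0.32.

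All 4 measured complement genes lay above the trend, against 36.4% of all genes, and a list this small was not tested. CLU, a secreted chaperone that inhibits the terminal complement complex, had a ratio of 2.93. It had 1321 CPM in AAS11, 717 CPM in AAS10, 314 CPM in AAS13 and 265 CPM in AAS7, a median of 93.4 CPM and 0 counts in AAS15. C3, the central complement component, was highest in AAS4 at 322 CPM and had 3.35 CPM (1 count) in AAS10, with a ratio of 1.97. SERPING1, the C1 inhibitor, had the smallest ratio of the list, 1.29, with 99.5 CPM in AAS9.

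Mammary epithelial markers as a list did not vary more than other genes, but 2 members did. Above the trend lay 4 of 13 (30.8%, against 36.4% of all genes), and the median ratio was 0.898. Of the 2 members, KRT15, a keratin of basal cells, had 191 CPM in AAS10, 79.5 CPM in AAS12, 79.4 CPM in AAS7 (9 counts) and 72.8 CPM in AAS3. Its median was 21.0 CPM, and AAS13 and AAS15 had 0 counts. PIGR, which carries polymeric immunoglobulin through epithelial cells, had 301 CPM in AAS12, 146 CPM in AAS8 and 127 CPM in AAS10, a median of 66.0 CPM, 4.68 CPM in AAS13 and 0 counts in AAS7 and AAS15. The ratios were 2.22 and 2.15. EPCAM was among the steadiest of all list members, with a ratio of 0.39. AAS10, with the highest KRT15, had the lowest IGHM, whereas AAS7 was high in both (79.4 and 424 CPM) and AAS9 low in both (3.48 and 86.1 CPM). This pair was chosen after its values were seen, and it was not tested.

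**Figure D3:**
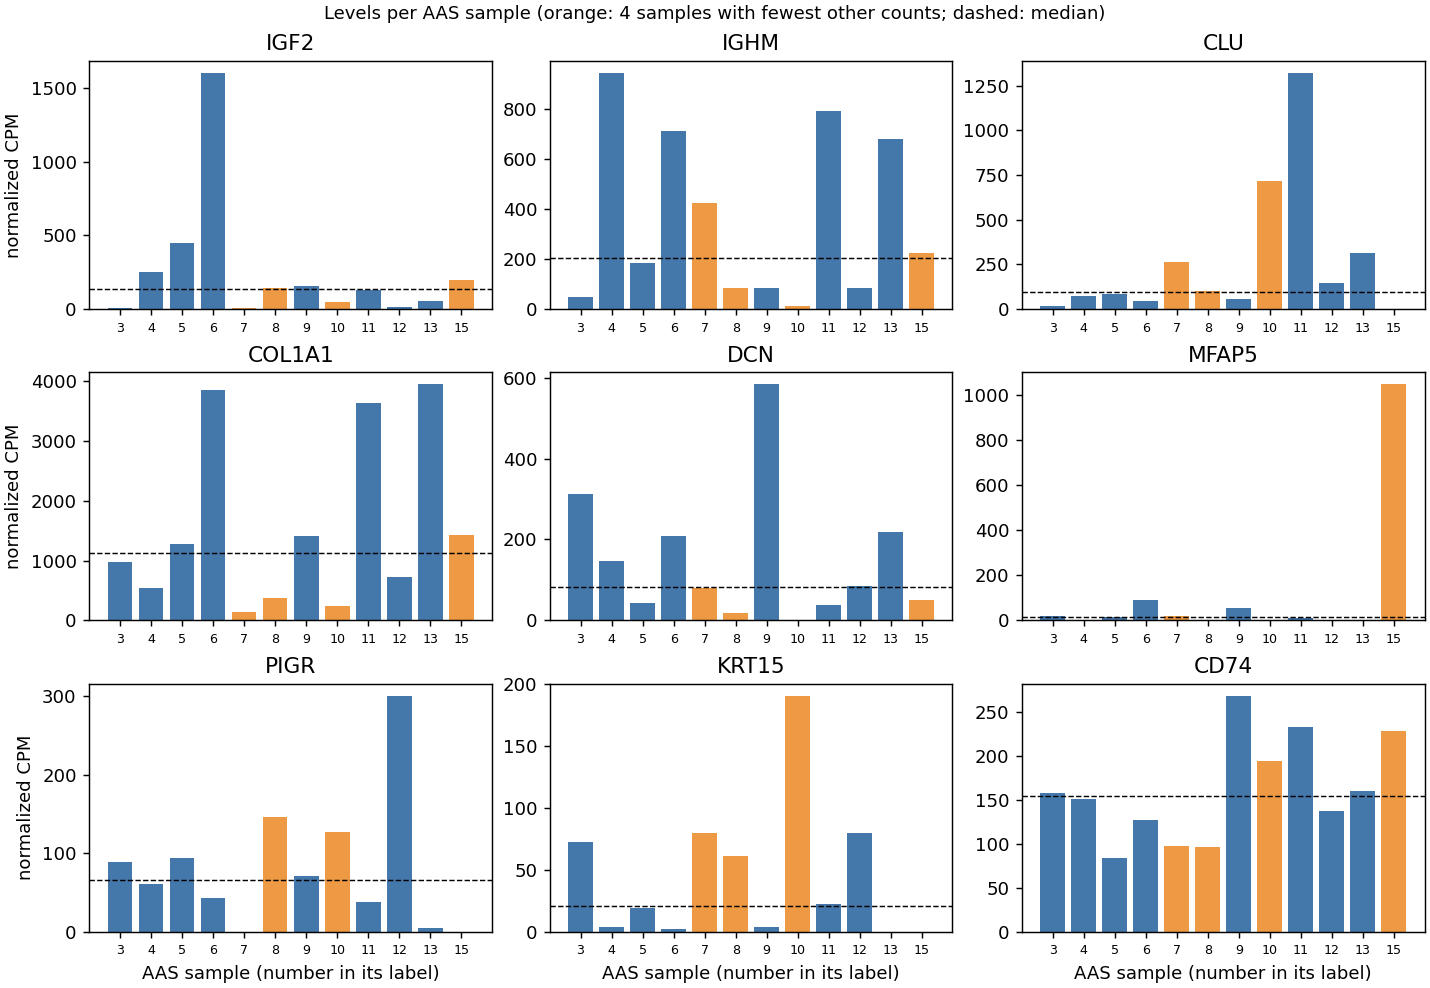
Normalized CPM of 9 genes in each of the 12 AAS samples, with the median of each gene as a dashed line and the 4 samples with the fewest counts outside the most counted gene in orange. IGF2 is highest in AAS6 at 1602 CPM and MFAP5 in AAS15 at 1049 CPM, whereas CD74 stays between 83.6 and 269 CPM.

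Immediate early genes, which cells switch on within minutes of a stimulus, lay above the trend in 6 of 8 cases (75%, against 36.4% of all genes). FOS, a subunit of the AP-1 factor, had 655 CPM in AAS13, 314 CPM in AAS9, 295 CPM in AAS12 and 275 CPM in AAS4. Its median was 67.7 CPM, and AAS15 had 1.83 CPM (1 count). FOSB was highest in AAS13 too, at 97.6 CPM, and at 0 in AAS10 and AAS15. The ratios were 2.43 and 1.54. KLF4 was steady at 20.9 CPM or below, with a ratio of 0.51.

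AAS8 was the highest of the 12 samples for 13.9% of all genes, and several list members stood out in it. ACTG2, the smooth muscle gamma actin, had 176 CPM in AAS8 against 89.2 CPM or less elsewhere. ACTA2, the alpha actin of smooth muscle and activated fibroblasts, had 216 CPM in AAS8 and 267 CPM in AAS9, against 113 CPM or less in the others. RSAD2, an antiviral gene induced by interferon, had 217 CPM in AAS8 and 46.6 CPM or less in the others. OASL, another antiviral gene of the interferon list, had 557 CPM in AAS8 and at most 300 CPM in the others. Other members of that list differed, since IFIH1 had 29.3 CPM in AAS8 with a ratio of 0.63 and DDX60 had 3.66 CPM. BROX, which has a domain of the endosomal sorting machinery, had 5144 CPM in AAS8 and 124 to 594 CPM elsewhere. C15H1orf50 had 2522 CPM there and at most 318 CPM elsewhere, and SND1, an RNA-binding nuclease, had 521 CPM and at most 75.0 CPM. Their ratios of 2.28, 2.73 and 2.23 fell to 0.85, 0.62 and 0.38 without the 4 shallow samples.

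The other genes of large ratio with a symbol also owed their spread to a few high samples. KRTCAP2, a subunit of the N-glycosylation complex, had 1491 CPM (169 counts) in AAS7, 106 CPM (168 counts) in AAS5 and at most 23.8 CPM elsewhere, and its ratio of 3.36 fell to 1.02 without AAS7 and 1.40 without the 4 shallow samples. SCRN1, a protein of exocytosis, had 223 CPM in AAS6 and at most 9.15 CPM elsewhere, and its ratio of 3.27 rose to 5.24 without the 4 shallow samples. ARF5, a small GTPase of the Golgi, had 119 CPM in AAS5 and 0 counts in 7 samples. COPG2, a coat protein of Golgi vesicles, had 523 CPM in AAS5 and 298 CPM in AAS6 and overlaps MEST in the gene table. XG, a blood group glycoprotein, had 111 CPM in AAS9, 93.0 CPM in AAS4, 53.2 CPM in AAS3 and 41.8 CPM in AAS6 and at most 2.12 CPM in the other 8. GPSM3, a regulator of G proteins in leukocytes, had 270 CPM in AAS6 and 176 CPM in AAS4. SLC25A48, a mitochondrial carrier, had 123 CPM in AAS11 and at most 9.54 CPM elsewhere.

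The adipocyte and nerve lists had few measured members. Of 17 adipocyte markers 5 had an identifier and 3 reached a mean of 10 counts. Of 8 nerve and Schwann cell markers 4 had an identifier and 1 reached that mean. SCD, a fatty acid desaturase, had 352 CPM in AAS10, 168 CPM in AAS8 and a median of 28.4 CPM. SOX10, a factor of Schwann cells, had 56.1 CPM in AAS8 and 22.5 CPM or less elsewhere. MKI67, a protein of cycling cells, ran from 8.48 to 50.8 CPM with a ratio of 0.64.

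By the ratio, the steadiest genes with a symbol were PPM1E, DIS3L, HEMGN, SUMO2 and DHPS, at 0.14 to 0.22. PPM1E, a phosphatase, stayed between 25.9 and 46.9 CPM in all 12 samples. SUMO2, a small protein modifier, stayed between 18.0 and 44.6 CPM. DHPS, an enzyme of hypusine synthesis, stayed between 28.1 and 45.9 CPM in 11 samples and had 11.0 CPM in AAS15. HEMGN had 79.4 CPM (9 counts) in AAS7 and 16.7 to 41.7 CPM elsewhere. DIS3L had a mean of 11.6 counts, with 0 counts in AAS7, 1.83 CPM (1 count) in AAS15 and 23.4 CPM (7 counts) in AAS10. Its small ratio does not mean an even level, since counting error is large at so few counts. With AAS14 added the ratio of SUMO2 was 0.77, that of DIS3L 0.34 and that of PPM1E 0.26. Without the 4 shallow samples the ratios of SUMO2, DHPS and DIS3L were 0.33, 0.14 and 0.01.

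**Figure D4:**
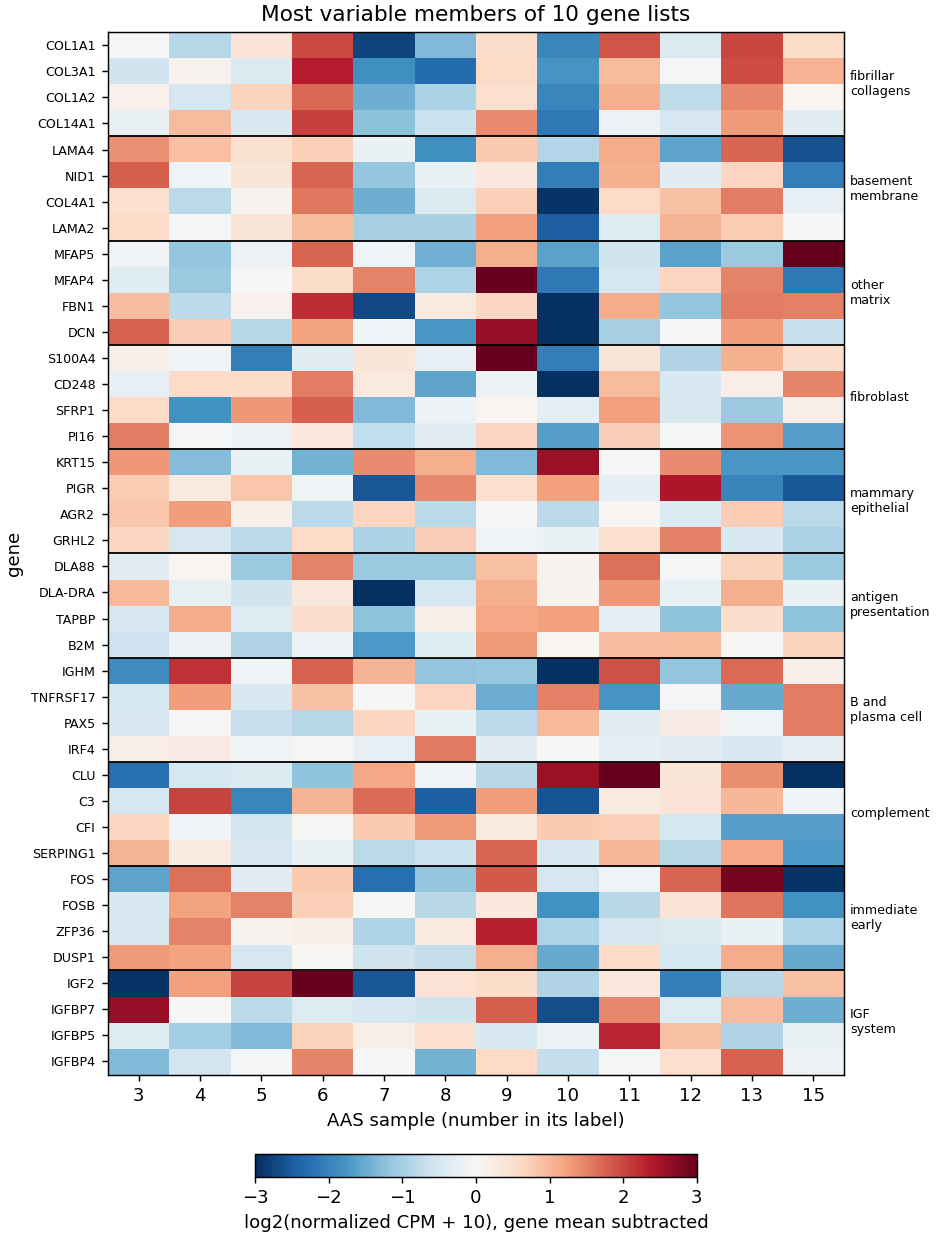
Log2(normalized CPM + 10) of up to 4 members with the largest ratios in each of 10 gene lists, with the mean of each gene over the 12 AAS samples subtracted; red is above and blue below that mean, and colours stop at 3 in either direction. Most of the matrix genes shown lie below their mean in AAS10, whereas KRT15 and CLU are high in AAS10.

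The 100 genes with the largest ratio were grouped by average linkage on the correlation of their log2 CPM into 5 groups. The largest held 40 genes, 17 of them with a symbol: matrix genes (MFAP4, FBN1, DCN, COL1A1, COL3A1), immune genes (IGHM, GPSM3), FOS and S100A4 among them. This group was lowest in AAS10 and highest in AAS9, AAS13 and AAS4. A group of 24 with PIGR, SND1, BROX, C15H1orf50 and SLC25A48 was highest in AAS8. A group of 19 with KRT15, CLU and KRTCAP2 was highest in AAS7 and AAS10 and low in AAS15. A group of 16 with IGF2, MFAP5 and SCRN1 was highest in AAS15 and AAS6, and 1 gene stood alone. The median correlation between members of a group was only 0.26 to 0.42. These genes were chosen by their spread, and the groups were not tested.

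Relations were then computed over the 12 samples between the levels of the 15 lists with at least 3 measured genes, and with depth (log2 of the counts outside the most counted gene), block age and dog age. A list level is the mean of its genes' centred log2 CPM, and no gene is in 2 lists. Of 150 relations, 16 (10.7%) passed an adjusted p of 0.05 by Pearson's r in a permutation test, 14 of them between lists and all 14 positive. Without AAS7, 9 of the 16 still passed and 7 did not. Adjusted p values were rounded to 2 digits before they were set against 0.05. Basement membrane and other matrix genes rose and fell together (r = 0.94, permutation p = 2e-05, adjusted p = 0.003, rho = 0.93, adjusted p = 0.0075, r = 0.90 without AAS7 and AAS10). This was the only relation to pass by both r and rho. Each was related to fibroblast markers (r = 0.92, permutation adjusted p = 0.006, and r = 0.90, adjusted p = 0.018). Fibrillar collagens were related to basement membrane genes (r = 0.81, rho = 0.78), to fibroblast markers (r = 0.81, rho = 0.73) and to other matrix genes (r = 0.76, rho = 0.79), with permutation adjusted p of 0.02, 0.02 and 0.037 for r.

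Immune lists were related to the matrix in part. Myeloid markers were related to other matrix genes (r = 0.85, permutation adjusted p = 0.02, rho = 0.73), to basement membrane genes (r = 0.78, adjusted p = 0.037, rho = 0.64) and to fibroblast markers (r = 0.78, adjusted p = 0.037, rho = 0.59). Without the 2 samples farthest from the median, r was 0.58, 0.41 and 0.58. With list levels by summed CPM it was 0.31, 0.19 and 0.13, and none of these passed. Antigen presentation was related to the IGF system (r = 0.76, permutation adjusted p = 0.049, rho = 0.80), and fibrillar collagens to the IGF system (r = 0.82, adjusted p = 0.029, rho = 0.83). Without AAS7 the relation of fibrillar collagens to the IGF system had r = 0.78 and did not pass. Immediate early genes were related to other matrix genes (r = 0.76, permutation adjusted p = 0.037, rho = 0.79) and to basement membrane genes (r = 0.74, adjusted p = 0.049, rho = 0.67), and smooth muscle to adipocyte markers (r = 0.75, adjusted p = 0.037, rho = 0.85). With summed CPM the r of antigen presentation with the IGF system was 0.32, and those of immediate early genes with other matrix and basement membrane genes were 0.28 and 0.42. None of these passed. B and plasma cell markers, mammary epithelial markers, complement and interferon response were in no relation that passed. The r of mammary epithelial markers with fibrillar collagens was -0.10 (permutation adjusted p = 0.86).

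Of the 15 lists only antigen presentation passed in its relation to depth (r = 0.72, permutation adjusted p = 0.049, rho = 0.51), and none passed by rho. The r of depth was 0.79 with basement membrane genes (permutation adjusted p = 0.05 after rounding, so not called) and 0.64 with other matrix genes (adjusted p = 0.16, rho = 0.80). It was 0.68 with fibrillar collagens, 0.67 with the myeloid, fibroblast and immediate early lists and 0.66 with the IGF system (permutation adjusted p from 0.082 to 0.13). It was negative only with B and plasma cell markers (r = -0.37). Lists that did not pass thus also rose with depth in part. The part of depth in the relations between lists was not tested. Without the 4 shallow samples, chosen after seeing the data, none of 150 relations over 8 samples passed in an exact permutation test, and 9 did so before adjustment. The relation of basement membrane to other matrix genes then had r = 0.79, and that of basement membrane to fibroblast markers r = 0.74. The relation of myeloid markers to basement membrane genes turned to r = -0.11, and r with other matrix genes and fibroblast markers was 0.46 and 0.19. The r of smooth muscle with adipocyte markers was 0.95 there and 0.90 without AAS7. The adipocyte list held only 3 measured genes and was lowest in AAS12, with 2 counts of SCD and 0 of DGAT2. Without AAS7 and AAS12 this r was 0.79. Mitochondrially encoded genes were negatively related to dog age (r = -0.75, permutation adjusted p = 0.049, rho = -0.49), and r was -0.22 without AAS4 and AAS7, so that this relation rests on those samples.

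**Figure D5:**
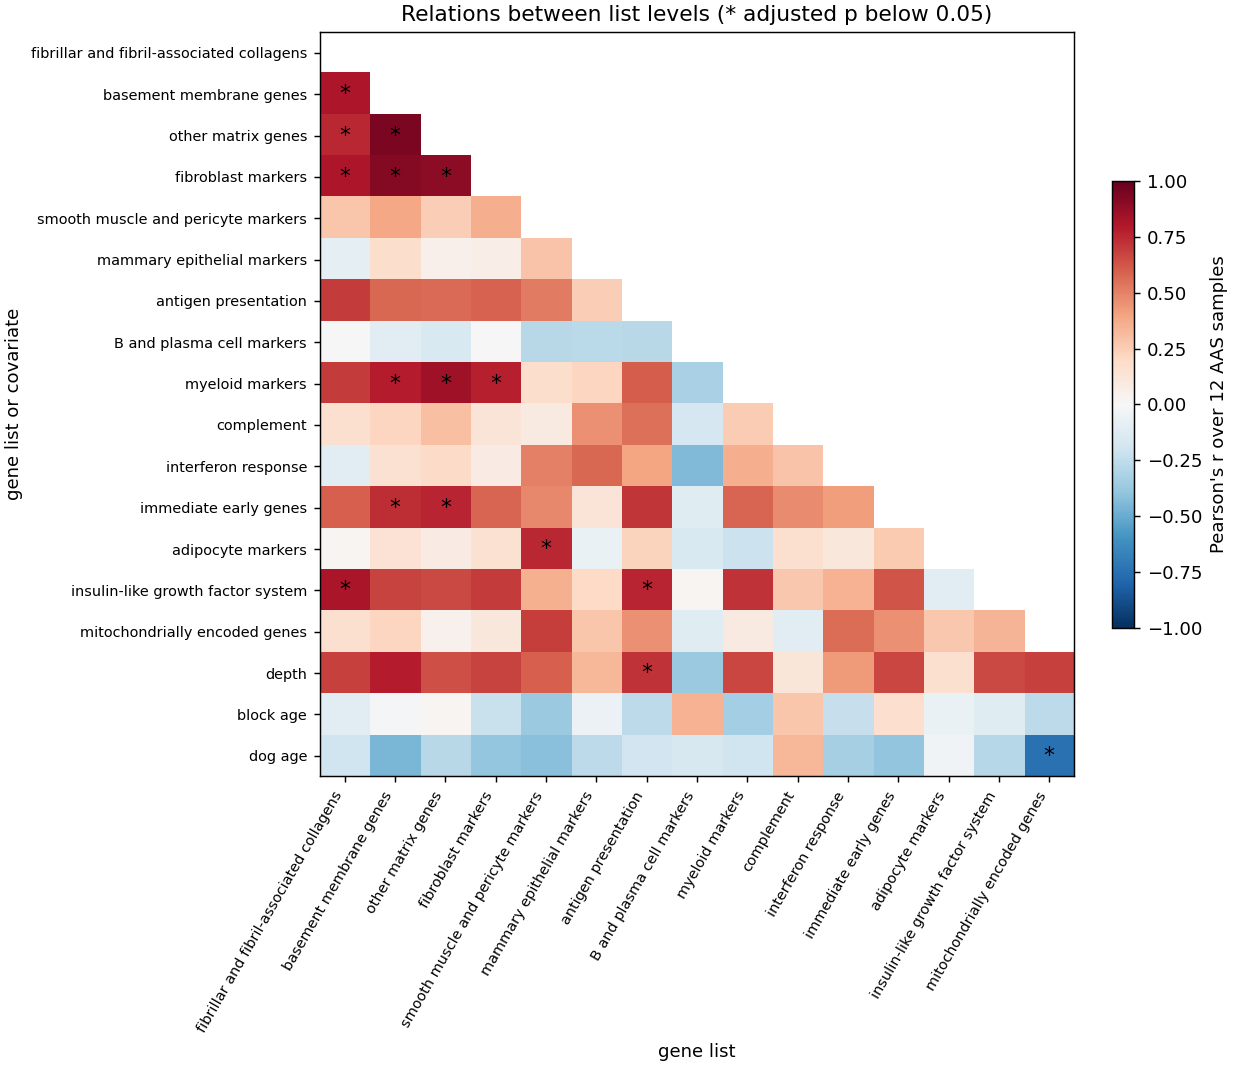
Pearson's r over 12 AAS samples between the levels of 15 gene lists and with depth, block age and dog age; red is positive, blue negative, and a star marks an adjusted p below 0.05 in the permutation test. The 3 matrix lists and the fibroblast markers form a block of r from 0.76 to 0.94, and the row of depth is positive for most lists.

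For IGF2, BGN, LTBP2 and CD74, the genes whose order over the 12 samples was most alike were sought among 2110 genes with a symbol by Spearman's rho, as a description. For CD74 these were DLA-DRA (rho = 0.81), B2M (0.77), which holds class I molecules together, and GMIP (0.75). Without the 4 shallow samples they were 0.90, 0.67 and 0.57. For IGF2 they were CDH16, a cadherin (0.85), TMEM109 (0.84) and FAT4, a giant cadherin (0.82). For BGN they were DKKL1 (0.91), SLF1 (0.85) and SVEP1, an adhesion protein of the matrix (0.83). For LTBP2 they were UBXN2B (0.86), TAF6 (0.85) and CCNY (0.85). Without the 4 shallow samples, in the same order, rho was 0.90, 0.88 and 0.83 for IGF2 and 0.93, 0.74 and 0.81 for BGN. For LTBP2 it was 0.86, 0.62 and 0.86. These genes were picked as the highest of 2110, which favours a high rho, and they were not tested. Depth differed among these samples as given above.

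Between whole samples, the mean Pearson correlation with the other 11 on a variance-stabilized scale was lowest in AAS10 (0.738), AAS15 (0.740), AAS7 (0.743) and AAS8 (0.744) and highest in AAS5 (0.849). This mean rose with depth over the 12 samples (r = 0.83, permutation p = 0.00019, adjusted p = 0.00038, rho = 0.77, p = 0.0048, adjusted p = 0.0096), and r was 0.90 without AAS7 and AAS10. The first principal component held 23.7% of the variance and set AAS15 apart, and the second held 17.0% and set AAS10 apart. The first was related to depth (r = 0.64, permutation p = 0.035, adjusted p = 0.035, rho = 0.57, p = 0.059).

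Single genes were tested for a slope on block age, dog age and depth with the quasi-likelihood test of edgeR over 5057 genes with at least 10 counts in at least 6 samples. On block age 1 gene (0.0198%) passed an adjusted p of 0.05, and 210 did so before adjustment. It was KRTCAP2, with a log2 slope of 0.27 ± 0.04 (SE) per month (edgeR adjusted p = 0.00149). AAS7 had the oldest block, the oldest dog and the fewest counts outside its most counted gene, so these cannot be told apart in it. Without AAS7 the edgeR test called 0 genes on block age and 151 before adjustment. On dog age edgeR called 0 genes (0%), 131 before adjustment, and the DESeq2 Wald test called 0 too. On depth 6 genes passed (0.119%), 1 rising and 5 falling. SLIT3, a guidance protein secreted by stromal cells, rose by a log2 slope of 1.90 ± 0.38 per doubling of the counts (edgeR adjusted p = 0.0407). It had 0 counts in AAS7 and AAS10, 11.0 CPM in AAS15 and up to 165 CPM in the others. SLIT3 did not pass without AAS7 (slope 1.79). KRTCAP2 had a slope of -1.41 ± 0.25 (edgeR adjusted p = 0.015), which was 0.87 and did not pass without AAS7. ENSCAFG00000029384 was also called, but it is the most counted gene of 7 samples, whose counts depth leaves out, so that its slope is not independent of depth and is not given.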

How the data were processed

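RNA of laser-captured AAS was sequenced from FFPE blocks with a stranded total RNA kit for low input, with 4 ng of RNA per sample per the labels. The authors quantified the reads with kallisto 0.44.0 against CanFam3.1 transcripts and collapsed transcripts to genes by tximport. The deposited values are estimated counts, not normalized, for 18466 genes, and all are whole numbers. Symbols came from the study's supplementary tables, which pair 3302 identifiers with a symbol and favour genes the study singled out. The other genes carry no name here. Depth ranged from 419770 to 1614120 counts.

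Normalization, BCV and slopes used edgeR 4.0.16 in R 4.3.3, with Benjamini-Hochberg adjustment at 0.05. The spread was computed for genes whose mean reached 10 counts, and the slopes for those reaching 10 counts in 6 or more samples. Log2 CPM carried a prior count of 2. Relations used 100000 permutations in scipy 1.17.1 (Python 3.11.15). DESeq2 1.42.0 gave the variance-stabilized values and an alternative test. The code was tested on simulated counts. Samples are replicates of AAS from separate dogs.

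Named genes were IGF2, BGN, LTBP2 and CD74, each sample's most counted gene, the 10 named genes with most counts, the 20 with the largest and the 5 with the smallest BCV ratio, for each list the 2 largest and 1 smallest, up to 5 per slope and direction, and the 3 nearest to each of the first 4. Other members of the lists are named where they stand beside these, and they were chosen after their values were seen. A gene that the rule names is not reported here. The members, the gene lists and the tests were chosen with earlier results of these data known. Pair 14 was left out, as in the study's methods, and added as an alternative. Other alternatives were DESeq2 size factors, other filters, another spread measure, a prior count of 0.5, lists by summed CPM, all 3 covariates in one model, and leaving out AAS7. Leaving out the 4 shallowest samples was chosen after seeing the data.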

Additional observations from a re-analysis of the deposited data

How the results depend on the processing

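The number of genes with a ratio of at least 2 was 96. It was 106 without AAS7, 95 with AAS14 added, 95 with DESeq2 size factors, 58 when 10 counts were required in 6 samples, 163 without the 4 shallowest samples (chosen after seeing the data) and 1161 with no filter, where low counts enter. Of the 100 genes with the largest ratio, 85, 88, 96, 54, 57 and 2 were the same in that order, and 55 were by the SD of variance-stabilized values. The filter of 10 counts in 6 samples kept only 54 of the 100, and 91 of them had enough counts without the 4 shallowest. On block age edgeR called 1 gene, and 0 without AAS7, 0 with the DESeq2 Wald test, 0 with all 3 covariates in one model and 135 with no filter. On dog age it called 0, and 1 with all 3 covariates and 340 with no filter. On depth it called 6, and 20 without AAS7 (1 of them the same), 83 with the Wald test, 1 with all 3 covariates and 210 with no filter. The cause was not tested. Relations that passed numbered 16, and 13 without AAS7 (9 of them among the 16), 12 with AAS14 added, 17 with a prior count of 0.5, 8 with DESeq2 size factors, 7 with lists by summed CPM and 0 without the 4 shallowest samples. The relation of basement membrane genes to myeloid markers turned to -0.11 there, and the KRTCAP2 slope on depth to 0.87 without AAS7. No paired analysis was possible because only AAS samples were used, and the number that joins AAS to normal stroma has no second sample among them. Of the 12 AAS samples, AAS7 and the 4 shallowest together were left out as alternatives. For relations, r was also computed without the 2 samples farthest from the median. In AAS7, 1 count is worth several CPM, so low levels there are uncertain.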
